A study of Homo sapiens with 2 samples.

Results

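The 500 regions described here were the tallest of the narrow peaks of a PML-RARA profile in NB4 cells, a human line of acute promyelocytic leukemia. They were taken from 16048 peaks shorter than 1500 bp on chromosomes 1 to 22 and X, of 20085 peaks in all, in order of the highest signal reached inside each peak. They made up 3.12% of those short peaks and held 13.6% of their summed signal, and 5.88% of the summed signal of the peaks of any length on these chromosomes. The regions were chosen by their measured height and length, so the values of both are given as a description. Position, the company of other peaks, and the genes of the same chromosome band were not used in the choice.

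The cells carried no stated treatment. DNA next to the antibody target was collected by CUT&Tag in 2 replicates, which form 1 group and for which the authors deposited 1 merged list of peaks. The list gives no value per replicate, no control library was analysed here, and whether the replicates were grown separately is not stated. No spread between samples could therefore be computed, no difference below was tested, and the number of reads behind a peak is unknown.

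PML-RARA joins PML, the scaffold protein of nuclear bodies, to the retinoic acid receptor alpha, a transcription factor that pairs with the retinoid X receptor. The fusion binds DNA as larger assemblies, recruits co-repressors, and is the driver of acute promyelocytic leukemia, in which myeloid cells stop maturing at the promyelocyte. In CUT&Tag a transposase held by the antibody cuts adapters into nearby chromatin, so open chromatin close to a bound protein is read along with the bound site. A peak caller then joins adjacent covered bases into a region and records its total signal, which is the coverage summed over its bases, and its maximum. An antibody against a fusion can also bind the normal partner proteins.

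The peaks have hg19 positions, and no hg19 sequence was used here, so the letters under the peaks themselves are not printed. Of the 427 genes whose start sites were known on hg19, 4 had a tall narrow peak within 2 kb of a start. The RefSeq promoters of these genes (GRCh38.p14, 250 bases up to the start of transcription, 5′ to 3′ on the strand of the gene) are shown because they are the only DNA at hand that can be tied to individual tall narrow peaks by gene. Capitals mark matches, on either strand, to any of the 19 motifs that were searched.
XPO1 promoter 1: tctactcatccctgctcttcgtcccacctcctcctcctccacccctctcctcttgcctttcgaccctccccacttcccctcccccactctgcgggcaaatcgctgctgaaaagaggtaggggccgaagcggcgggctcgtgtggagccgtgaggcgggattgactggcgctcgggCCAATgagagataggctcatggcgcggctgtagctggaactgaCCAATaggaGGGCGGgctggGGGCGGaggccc
XPO1 promoter 2: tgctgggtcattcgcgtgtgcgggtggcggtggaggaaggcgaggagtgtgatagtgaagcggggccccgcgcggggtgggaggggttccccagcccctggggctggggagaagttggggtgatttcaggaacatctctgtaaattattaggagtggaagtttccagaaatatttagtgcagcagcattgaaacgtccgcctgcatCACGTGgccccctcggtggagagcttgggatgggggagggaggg
PPME1 promoter 1: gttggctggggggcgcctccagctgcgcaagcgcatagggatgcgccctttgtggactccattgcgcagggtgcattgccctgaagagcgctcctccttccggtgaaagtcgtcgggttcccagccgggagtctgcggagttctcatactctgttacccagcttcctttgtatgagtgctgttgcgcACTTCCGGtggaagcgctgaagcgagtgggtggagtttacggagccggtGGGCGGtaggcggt
LMBR1 promoter 1: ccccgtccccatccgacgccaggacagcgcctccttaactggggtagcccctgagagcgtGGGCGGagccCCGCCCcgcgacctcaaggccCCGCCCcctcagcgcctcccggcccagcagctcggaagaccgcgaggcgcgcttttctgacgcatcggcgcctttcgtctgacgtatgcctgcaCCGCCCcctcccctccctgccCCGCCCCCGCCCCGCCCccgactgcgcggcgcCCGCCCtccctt
CLCN6 promoter 1: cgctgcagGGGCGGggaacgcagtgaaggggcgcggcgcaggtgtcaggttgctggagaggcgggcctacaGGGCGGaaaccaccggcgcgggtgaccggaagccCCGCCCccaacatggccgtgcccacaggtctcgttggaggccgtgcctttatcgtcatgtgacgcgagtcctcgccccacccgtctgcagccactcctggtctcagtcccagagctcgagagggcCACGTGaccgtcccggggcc

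GC boxes were the commonest match in these promoters. The letters GGGCGG, to which factors of the SP and KLF families bind, occurred 14 times and in 4 of the 5 sequences, and they occurred in 42.6% of 35116 RefSeq promoters of the same length. LMBR1 held 8 of the 14, and 2 of its boxes share a base. The E-box CACGTG, bound by MYC, MAX and USF proteins, was in the second promoter of XPO1 and in that of CLCN6, against 6.34% of all promoters. CCAAT, the NF-Y motif, was present 2 times in the first promoter of XPO1 and in 32.0% of all promoters. PPME1 held 1 ETS motif, CCGGAAGT, on the strand opposite to the gene, against 3.42% of all. The nuclear receptor motif AGGTCA was in 0 of the 5 windows and in 12.1% of all promoters. GC content was 65.2% and 60.4% for XPO1, 62.0% for PPME1, 75.6% for LMBR1 and 70.4% for CLCN6, beside a median of 58.0% over all promoters. A match is a description of letters, and the windows say nothing about sequence under the other peaks.

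XPO1, which encodes the nuclear export receptor exportin 1, carried a tall narrow peak over its annotated hg19 start and a second one downstream of it. The first lay at chr2:61764852-61766255, was 1403 bp long, reached a maximum of 123 with a total of 46996, and had its midpoint 62 bp upstream of the annotated start on the minus strand. The other, at chr2:61763717-61764491, was 774 bp long with a maximum of 85 and a total of 14196. Its midpoint fell 1387 bp downstream of that start, in an intron of the example gene model. A gap of 361 bp separated them. The midpoints were 1449 bp apart on hg19, and the RefSeq starts of the promoters printed above were 1269 bases apart on GRCh38.p14. The second peak began 1000 bp downstream of the hg19 start, so it would cover a start 1269 bp downstream. The RefSeq starts were not placed on hg19. USP34 and FAM161A are the protein-coding neighbours of XPO1 in the RefSeq order.

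PPME1, which encodes an esterase acting on protein phosphatase 2A, had a peak of 795 bp at chr11:73881882-73882677 with a maximum of 120 and a total of 30613. Its midpoint was 54 bp upstream of the start, and the nearest other peak lay 158748 bp away. At LMBR1, a membrane protein gene, the peak at chr7:156685521-156686575 was 1054 bp long, reached 96, and was centred 171 bp upstream. CLCN6, which encodes a chloride transporter of endosomes, had a peak of 1486 bp and maximum 81 at chr1:11865106-11866592, centred 303 bp upstream. In each of these 4 genes a tall narrow peak covered the start itself. A further peak at chr10:134148396-134149468, 1072 bp long with a maximum of 91, lay in an intron of LRRC27 with its nearer edge 2700 bp from the start. None of the 427 genes is a random draw, since the models are examples shipped with software.

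At these starts the shares of tall narrow peaks and of lower short peaks were close. Within 2 kb of a known start lay 5 of the 500 (1.00%, exact 95% interval 0.325 to 2.32), beside 164 of the 15548 other peaks under 1500 bp (1.05%) and 6 of the 1135 peaks that were as tall but 1500 bp or longer (0.529%). The interval of the tall narrow peaks holds both other shares. Of the 427 genes, 176 had any peak within 2 kb of a start and 148 had a peak under 1500 bp. Of the pathway and cell type lists, 7 genes were among the 427, namely ETV6, S100A9, NFKB2, HDAC9, ALDH1A3, GAPDH and MAP2, and 0 of the 7 had a tall narrow peak there. All intervals here cover counting only, and neighbouring peaks are not independent of each other.

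The maxima of the 500 peaks ran from 78 to 394, with a median of 101 and an interquartile range of 85 to 125.25, in units of coverage on the authors' scale. The maximum was above 200 in 21 peaks and at least 100 in 255. Their lengths ran from 77 to 1499 bp (median 1162 bp), and their totals from 9591 to 170047 (median 29583). The other short peaks had a median maximum of 18, a median length of 782 bp and a median total of 4964.5. The long peaks of the same height had medians of 118, 2580 bp and 60858. Of all 1635 peaks that reached 78, the tall narrow ones were 30.6%.

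**Figure D1:**
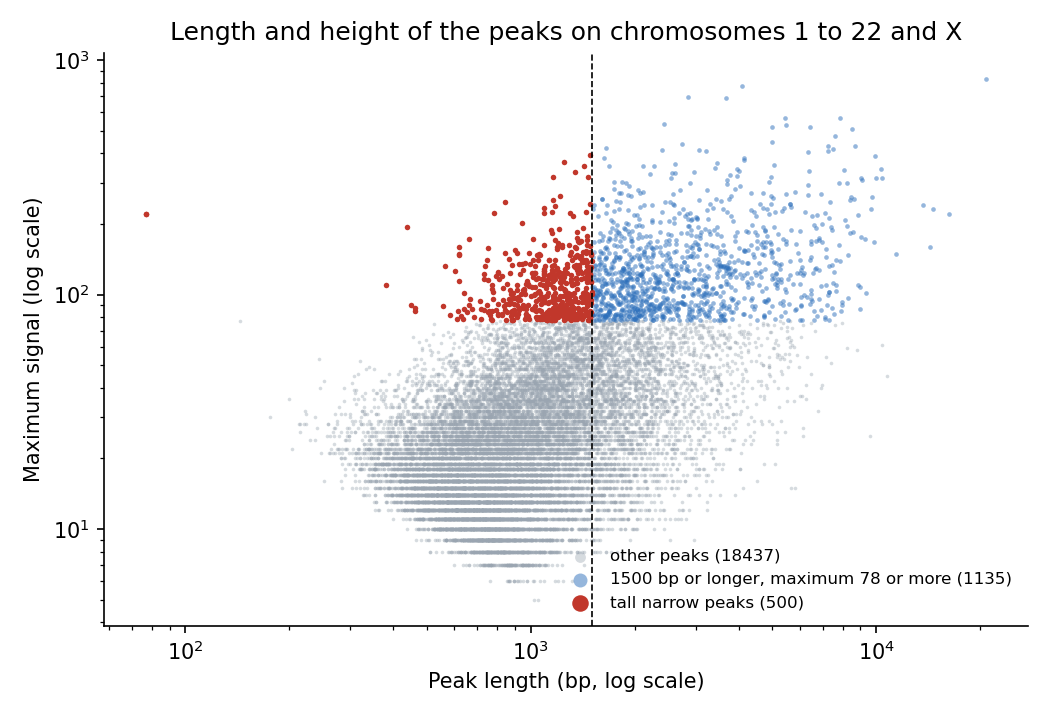
Length of each peak in bp (horizontal, log scale) against its maximum signal in units of coverage (vertical, log scale); each point is 1 peak on chromosomes 1 to 22 and X. The 500 tall narrow peaks fill the upper left corner, bounded by 1500 bp and by a maximum of 78, and the pair of 77 bp peaks lies apart at the far left.

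The edges of the set fell inside a continuous distribution. All 17 short peaks with a maximum of 78 were in, and the 16 with a maximum of 77 were out. The last peak inside, at chr11:34360310-34361194, was 884 bp long with a total of 16189. The first outside, at chr6:14910509-14911928, was 1419 bp long with a total of 32228. Ties in maximum were ordered by falling total, so the order of these totals follows from the sorting. On the side of length, 84 members were 1400 bp or longer, and 67 peaks with a maximum of at least 78 were 1500 bp or longer but under 1600 bp. The share of peaks tall enough to enter grew with length, from 0.735% of those of 600 to 699 bp to 14.6% of those of 1400 to 1499 bp.

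Both height and length were limited by the choice of the 500, which narrows the range of any relation between them. Spearman's rho across peaks of this list, which share libraries and depth, was 0.697 for maximum and total, 0.490 for total and length, and 0.126 for maximum and length. Over all 16048 short peaks, rho for maximum and length was 0.261. The ranking by total signal would have kept 370 of the 500, and that by mean signal per base 377. Only 11 of the 500 were among the 500 peaks of any length with the highest totals, while 88 were among the 500 with the highest maxima. The tallest ranked 24th by maximum among peaks of any length.

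The shape of a peak is given here as its mean signal divided by its maximum, which is 1 for a block of even height and lower for a sharp summit on broad flanks. The median was 0.258 for the tall narrow peaks (interquartile range 0.219 to 0.291), 0.367 for the other short peaks and 0.183 for the tall long ones. The lowest value among the 500 was 0.142, at the peak of rank 3 on 3p25.1. Since the maximum chose the peaks and is the divisor, the order of these medians was not tested.

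**Figure D2:**
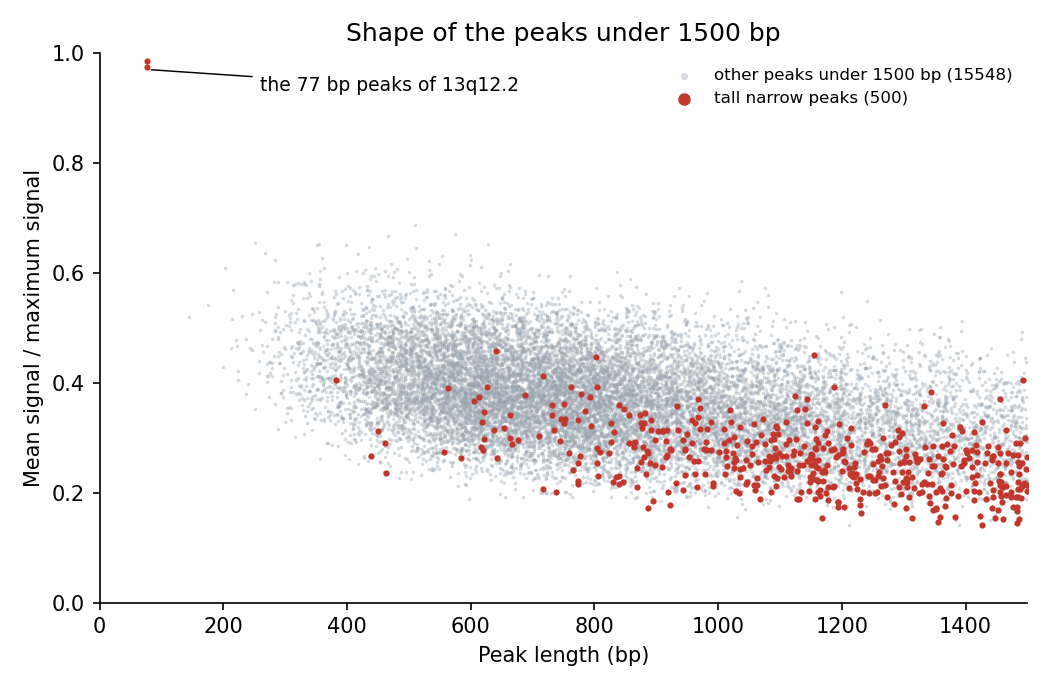
Mean signal divided by maximum signal (vertical, no unit) against peak length in bp (horizontal) for the 500 tall narrow peaks and the 15548 other peaks under 1500 bp; each point is 1 peak. The pair of 77 bp peaks sits at 0.985 and 0.974, while the next highest peak of the list is at 0.687.

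A pair of peaks on chromosome 13 stood apart from every other peak of the list in length and shape. They lay at chr13:28608022-28608099 and chr13:28608276-28608353, were each 77 bp long, and each reached a maximum of 221, ranks 18 and 19 of the 500. Their totals were 16769 and 16583, so that the mean signal per base, 218 and 215, was close to the maximum over the whole length. The ratio of mean to maximum was 0.985 and 0.974. No other peak of the list exceeded 0.687, and the highest value of another tall narrow peak was 0.457. The next shortest peak was 144 bp long, and the next shortest tall narrow peak 382 bp. The highest mean signal among tall long peaks was 102.

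The surroundings of the pair were low. A gap of 177 bp separated the pair, which together spanned 331 bp. The nearest other peaks were 1080 bp away, at chr13:28605427-28606942 with a maximum of 23, and 103602 bp away on the other side, with a maximum of 28. The remaining peaks of the band 13q12.2, which has 10 peaks in all, reached at most 33. The band holds 12 protein-coding genes, among them FLT3, the receptor tyrosine kinase of blood progenitors. FLT3 is named from the shared band, and whether the pair lies inside the gene was not examined. The cause of the shape of the pair was not tested. Without the pair, and with the next 2 peaks taken in their place, 498 of the 500 peaks were the same, so no share could move much. The 4 shares that were recomputed were 61.8% with another peak within 10 kb, 1.00% at known gene starts, 67.6% in Giemsa-negative bands and 10.4% on chromosome 19.

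The tallest of the 500 lay at chr12:68758454-68759936 in 12q15, with a length of 1482 bp, a maximum of 394 and a total of 170047, the highest total in the set. The band holds 23 protein-coding genes. Among them are LYZ, the gene of lysozyme, a granule protein of myeloid cells, and MDM2, the ubiquitin ligase of p53. Genes are linked to peaks in this and the following paragraphs only by sharing a band of several Mb, and the genes named were chosen after the values were seen. The second, at chr6:30684687-30685932 in 6p21.33, was 1245 bp long and reached 366 with a total of 105003. That band holds 81 protein-coding genes, including TNF, LTA and LTB, cytokines of the tumor necrosis factor family, and the tubulin gene TUBB.

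The next 4 peaks by height lay at chr3:14692508-14693934 (maximum 355), chr11:121287571-121288911 (332), chr10:134350223-134351385 (317) and chr7:72649053-72650514 (317). Their bands were 3p25.1, 11q24.1, 10q26.3 and 7q11.23. Of the genes in the lists, 11q24.1 holds HSPA8 among 20 protein-coding genes, and 10q26.3 holds CYP2E1 among 36. The band 7q11.23 holds NCF1, which encodes part of the NADPH oxidase of phagocytes, among 70 genes. In 3p25.1, with 26 genes, none was listed. Rank 8, with a maximum of 253, lay in 17q25.3, which holds CD7 and RBFOX3 from the lists among 106 genes. Rank 9 fell at chr1:143913056-143913896 in 1q21.1, was 840 bp long, reached 248, and had no other peak within 169200 bp. Rank 15, at chr16:66906839-66907624, was 785 bp long with a maximum of 222 in 16q22.1, the band of CBFB, the partner of RUNX proteins. That band has 101 protein-coding genes. Rank 22, at chr17:28258169-28258608, was 439 bp long and reached 194 in 17q11.2, which has 79 protein-coding genes. Among them is SUZ12, which encodes a subunit of the polycomb repressive complex. A peak at chr1:33502373-33502755 was, after the pair on chromosome 13, the shortest of all at 382 bp, with a maximum of 110.

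The bands of both genes of the fusion held tall narrow peaks, beside a share of 3.12% over all short peaks. In 15q24.1, the band of PML and of the retinol transporter gene STRA6, 1 of 40 short peaks was in the set (2.50%), at chr15:74837831-74839228 with a maximum of 146. In 17q21.2, the band of RARA and of the signal transducers STAT3, STAT5A and STAT5B, 3 of 53 were (5.66%). They lay at chr17:40471599-40472542 (maximum 135), chr17:40539818-40541292 (126) and chr17:39834656-39836023 (124). The bands of PML and RARA span 2.5 Mb each, with 38 and 115 protein-coding genes. Distances from these peaks to PML or RARA were not measured, so no peak is placed at either gene.

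Bands of myeloid regulators had shares of tall peaks among their short peaks on both sides of the overall 3.12%, from counts too small for a comparison and without a test. In 21q22.12, which has 11 protein-coding genes including RUNX1, a master regulator of blood cell formation, 4 of 20 short peaks were in the set (20.0%), with maxima up to 140. In 14q11.2, the band of CEBPE, a factor of late granulocyte maturation, and of the eosinophil ribonucleases RNASE2 and RNASE3, 8 of 68 were (11.8%), with maxima up to 127. The band of IRF8, which directs monocyte fate, 16q24.1, had 6 of 95 (6.32%), with maxima up to 140. The band of SPI1, which encodes PU.1, 11p11.2, had 4 of 79 (5.06%), with maxima up to 101. Lower shares were found in 20q13.13, the band of CEBPB (1 of 91, 1.10%), in 1p36.11, the band of RUNX3 (2 of 118, 1.69%), and in 3q21.3, the band of GATA2 (1 of 53, 1.89%). Of the 32 bands of the myeloid transcription factor list, 13 held no tall narrow peak and 19 did. Over all 851 bands of these chromosomes, 249 did. The band of MPO, the myeloperoxidase gene of promyelocytes, 17q22, had 2 of 42 (4.76%), with maxima up to 84. In 19p13.3, which holds the granule protease genes ELANE, PRTN3 and AZU1, 6 of 222 were in the set (2.70%), below the 3.12% over all short peaks. The tallest of these 6 reached 163.

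Counted over whole lists, the set could be set beside the lower short peaks. Of the 500 peaks, 467 lay in bands that could be matched between hg19 and GRCh38, as did 14747 of the other short peaks and 1049 of the tall long ones. For myeloid and hematopoietic transcription factors, 56 of the 467 shared a band with a gene of the list (12.0%, exact 95% interval 9.19 to 15.3), against 8.92% of the other short peaks and 11.6% of the tall long ones. They fell in 19 of the 32 bands of the list, while 249 of all 851 bands of these chromosomes held a tall narrow peak. Bands were not matched for size or number of peaks. For genes of the NF-kappaB and TNF response, 27 did (5.78%, interval 3.84 to 8.30), against 3.49% and 5.91%. These 27 fell in 6 of the 12 bands of that list, with 8 in 19q13.32, 6 in 6p21.33 and 6 in 11q13.1. The intervals count each peak as independent, although many share a band. In these 2 lists of the 17 the share of the other short peaks lay below the interval of the tall narrow ones, and that of the tall long peaks lay inside it. Bands hold many genes and belong to several lists, and these differences were not tested.

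For the remaining 15 lists the interval of the tall narrow peaks held the share of the other short peaks. Neutrophil granule proteins had 36 (7.71%, against 6.08%), and the NADPH oxidase had 15 (3.21%, against 2.22%). Retinoid receptors and retinoid metabolism, the genes closest to the ligand of RARA, had 13 (2.78%, against 3.35%). PML nuclear bodies and the SUMO pathway had 43 (9.21%, against 9.01%), co-repressor and chromatin-modifying complexes had 44 (9.42%, against 8.98%), and myeloid surface proteins and growth factor receptors had 27 (5.78%, against 5.48%). Coagulation and fibrinolysis, whose genes matter for the bleeding of this leukemia, had 8 (1.71%, against 2.50%). Cell cycle and apoptosis had 26 (5.57%, against 4.33%), and the interferon response had 19 (4.07%, against 3.31%). Housekeeping genes had 46 (9.85%, interval 7.30 to 12.9, against 7.40%), so the other short peaks lay just inside the lower end. Ribosomal protein genes had 27 (5.78%, against 7.43%).

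Lists of other cell types gave shares on either side of the lower peaks. T and B lymphocyte markers had 17 (3.64%, against 4.39%), neuronal markers 15 (3.21%, against 3.04%), hepatocyte markers 17 (3.64%, against 3.36%) and erythroid markers 2 (0.428%, against 1.24%). For ribosomal protein genes the share of the tall long peaks, 8.87%, lay above the interval of the tall narrow ones, 3.84 to 8.30.

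**Figure D3:**
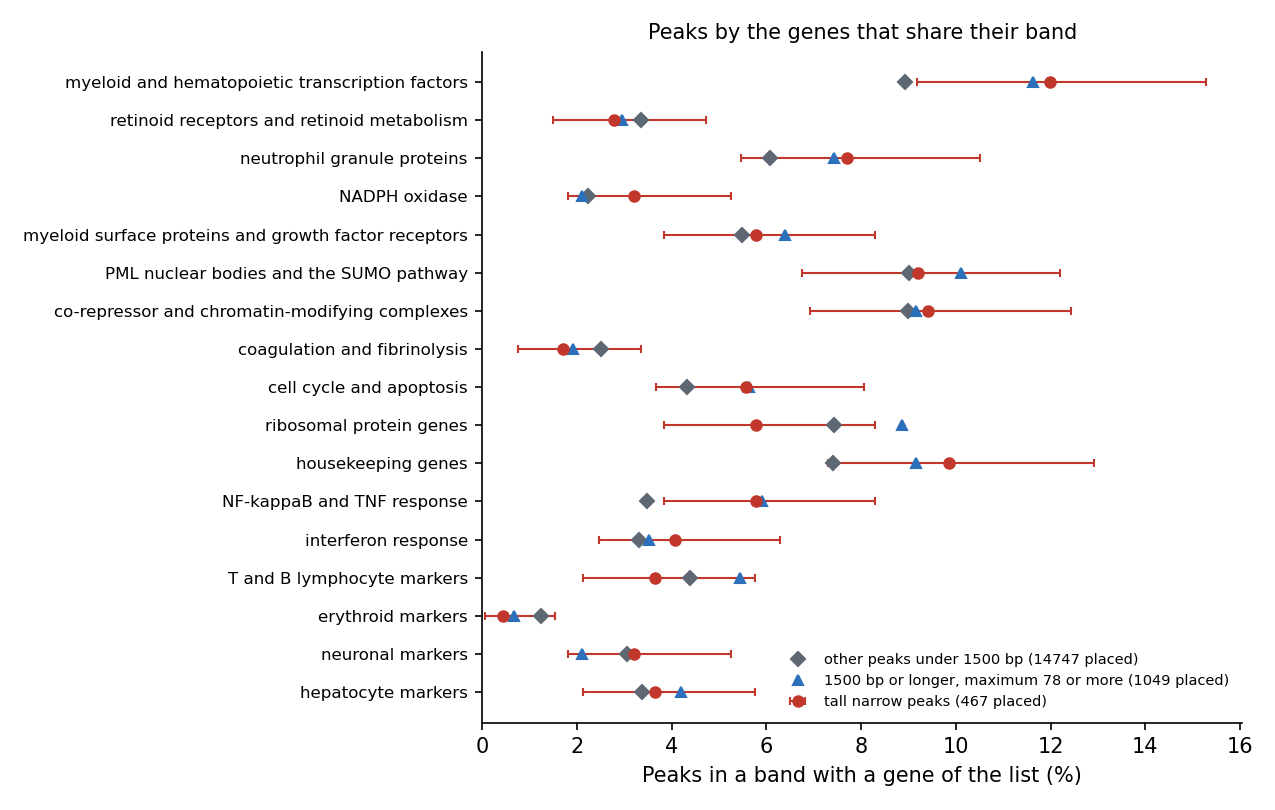
Share of peaks in percent (horizontal) that lie in a band with a gene of each list (vertical) for 467 tall narrow peaks, 14747 other short peaks and 1049 tall long peaks; bars are exact 95% intervals of the tall narrow peaks. The bars clear the other short peaks for the myeloid transcription factors (12.0% against 8.92%) and for the NF-kappaB list (5.78% against 3.49%). For housekeeping genes the bar starts at 7.30%, just below the other short peaks at 7.40%. The bars count each peak as independent, although many share a band.

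Across chromosomes the tall narrow peaks were spread over all 23. Chromosome 19 held 52 of them (10.4%), chromosome 1 held 49, chromosome 7 held 40, chromosome 12 held 37 and chromosome 17 held 35. Per Mb, chromosome 19 had 0.879 and chromosome X 0.0322. Read against the number of short peaks, the share that was tall was 5.73% on chromosome 21 (13 of 227, interval 3.08 to 9.59), 4.50% on chromosome 7 (interval 3.24 to 6.08) and 4.31% on chromosome 19 (interval 3.23 to 5.61). The intervals of chromosomes 7 and 19 lie above the 3.12% over all short peaks, and that of chromosome 21 includes it. The lowest shares were 1.47% on chromosome 22 (7 of 476, interval 0.593 to 3.01), 1.58% on chromosome X (interval 0.514 to 3.64) and 1.70% on chromosome 15 (interval 0.820 to 3.11), and of these only the interval of chromosome X includes 3.12%.

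The balance between narrow and long tall peaks differed between chromosomes. On chromosome 14, 19 of the 32 peaks that reached 78 were narrow (59.4%, interval 40.6 to 76.3), against 30.6% over all chromosomes. On chromosome 15 the share was 19.2% (interval 9.63 to 32.5). Whether chromosomes differed beyond chance was not tested.

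**Figure D4:**
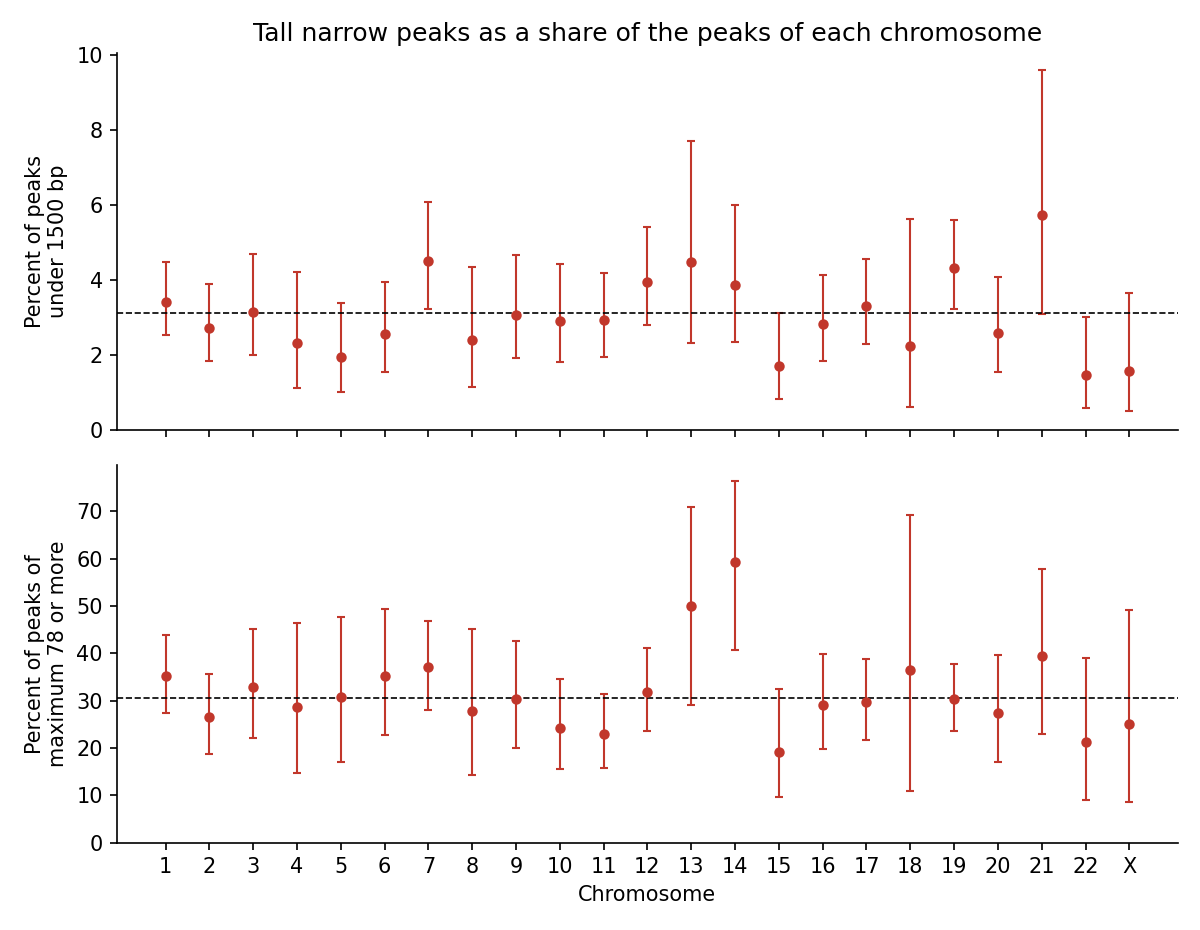
Tall narrow peaks by chromosome (horizontal) as a percent of the peaks under 1500 bp (upper panel) and of the peaks of any length with a maximum of at least 78 (lower panel); points are shares, bars exact 95% intervals and dashed lines the shares over all chromosomes, 3.12% and 30.6%. Chromosome 21 is highest in the upper panel at 5.73% and chromosome 14 in the lower at 59.4%.

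By cytogenetic stain the shares of the set lay close to those of the rest. In Giemsa-negative bands, which are rich in genes, lay 336 of the 500 (67.2%, interval 62.9 to 71.3), beside 69.5% of the other short peaks and 70.7% of the tall long ones. The palest of the stained classes had 15.6%, beside 12.9% and 15.9%. The darkest bands had 11 (2.20%), beside 2.68% and 1.67%. Centromeric bands had 2, in 10p11.1 and 22q11.1. In all, 249 bands held a tall narrow peak and 140 of them held 1. The 21 bands with at least 5 held 137 of the 500. The largest count, 13, was in 19p13.2, which has 262 short peaks (4.96%). As a share of short peaks, these bands ran from 2.70% in 19p13.3 (6 of 222) to 13.5% in 9p13.3 (7 of 52), beside 3.12% over all.

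The company that tall narrow peaks kept was closer to that of lower short peaks than to that of tall long ones. Another peak lay within 10 kb of 310 of the 500 (62.0%, interval 57.6 to 66.3), against 57.3% of the other short peaks and 80.4% of the tall long ones. Within 1 kb it was 115 of the 500, against 3413 of the 15548 other short peaks and 499 of the 1135 tall long ones. Peaks within 10 kb on both sides were found for 91 (18.2%, interval 14.9 to 21.9), against 23.4% and 42.0%. Runs of at least 8 peaks, joined by gaps of at most 10 kb, held 49 (9.80%), against 11.8% and 24.9%.

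Shares near chromosome ends and within 50 kb of tall long peaks lay apart from the other short peaks by more than the counting interval. So did the shares above for another peak within 10 kb, on any side or on both, and none of these was tested. The tall narrow peaks were also longer than the other short peaks (median 1162 against 782 bp), and the sets were not matched for length. Within 3 Mb of a chromosome end lay 48 (9.60%, interval 7.16 to 12.5), below the 14.5% of the other short peaks and the 12.8% of the tall long ones. Within 50 kb of a tall long peak lay 146 (29.2%, interval 25.2 to 33.4), above the 24.1% of the other short peaks, while within 10 kb the shares were 10.6% and 10.0%. Heights overlapped at every distance to the nearest peak of any height. The median maximum was 103 for the 115 with a neighbour within 1 kb, 101 for the 195 at 1 to 10 kb, 98 for the 157 at 10 to 100 kb and 107 for the 33 beyond 100 kb.

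**Figure D5:**
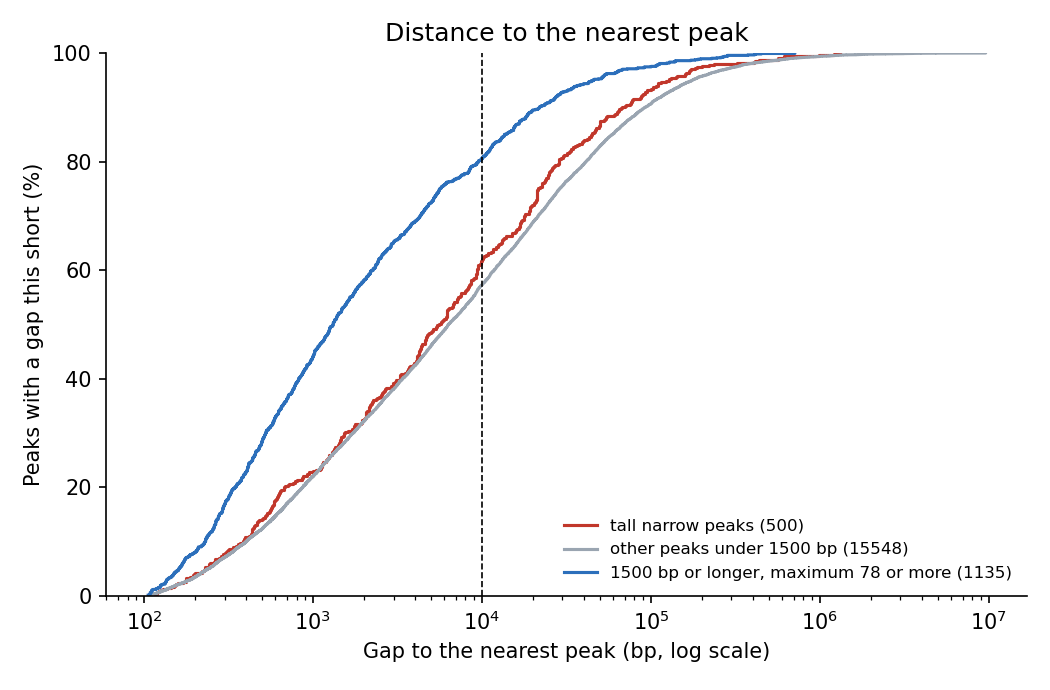
Cumulative percent of peaks (vertical) by the gap to the nearest other peak in bp (horizontal, log scale) for the tall narrow peaks, the other peaks under 1500 bp and the tall long peaks; the dashed line marks 10 kb. At 10 kb the lines stand at 62.0%, 57.3% and 80.4%, and the line of the tall narrow peaks runs near that of the other short peaks.

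No other peak lay within 100 kb of 33 (6.60%, interval 4.59 to 9.14), against 9.39% of the other short peaks and 2.56% of the tall long ones, and none within 200 kb of 12. The most isolated, at chr2:138464394-138465636 in 2q22.1, reached 124 with the nearest other peak 1324 kb away. Its band holds CXCR4, the chemokine receptor that keeps progenitors in the marrow, together with HNMT, LRP1B, NXPH2, SPOPL and THSD7B. The next, at chr7:20258858-20260352 in 7p21.1, the band of the histone deacetylase gene HDAC9, reached 149 with a gap of 1206 kb. The one after that, at chr2:146450496-146451117 in 2q22.3, was 621 bp long and reached 147 with a gap of 988 kb. Its band holds ZEB2, a zinc finger repressor, along with ACVR2A, ARHGAP15 and QTMAN. At chr16:73187574-73188717 a peak with a maximum of 85 lay in 16q22.3, where ZFHX3, a homeobox factor, is the only protein-coding gene of the RefSeq table.

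When tall narrow peaks at most 100 kb apart were grouped, 392 of the 500 were alone, 43 groups had 2, 6 groups had 3 and 1 group had 4, and no other set of peaks was grouped for comparison. The group of 4 spanned 172 kb of 6p21.33, from 30584548 to 30756878 on chromosome 6, with maxima of 93, 366, 124 and 93 among 19 peaks of any height. A group of 3, in 19q13.32, reached 99, 193 and 152 among 16 peaks. That band holds 87 protein-coding genes, with BBC3, C5AR1, RELB and SAE1 from the lists, and distances to them were not measured. In 7p13 the 3 maxima were 82, 124 and 173 among 14 peaks, and in 15q26.1 they were 120, 141 and 106 among 6.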

How the data were processed

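Per the labels' protocols, 2 replicates of NB4 CUT&Tag for PML-RARA were sequenced with paired-end reads. Trimmomatic, Bowtie2, SAMtools, bedtools, SEACR and the build hg19 are named in the submitters' processing notes; their versions and thresholds, any control track and the merging of replicates are not given in sources used here. Signal is what the authors' deposited list holds, read here as SEACR's total signal (the column headed width) and maximum signal: in all 20085 rows the former was larger than the peak length and at most length times maximum. No scaling to depth is stated. Starts are printed as deposited and may count from 0.

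Peaks under 1500 bp on chromosomes 1 to 22 and X were ranked by maximum, then total, chromosome and start, and 500 were taken; the selection was tested on simulated data. Distances are from edge to edge. The 427 hg19 gene models came from pyranges 0.1.4, whose table names no build but holds contigs named as in hg19, and GenomicFeatures 1.54.1. Bands came from circlize 0.4.16; genes were placed in GRCh38 bands, matched to hg19 bands by name, and bands differing by more than 10% in length were left out, as were centromeric, variable and stalk bands, leaving 741 of 851. Shares have exact (Clopper-Pearson) 95% intervals. Motifs were searched in the RefSeq promoters only: AGGTCA and its direct repeats DR1, DR2 and DR5, GAGGAAGT for PU.1, CCGGAAGT for ETS factors, TGTGGT for RUNX, TTGCGCAA for C/EBP, TTGCATCA for C/EBP with ATF, TGANTCA for AP-1, the E-box CACGTG, the GC box GGGCGG, the NF-Y motif CCAAT, TGACGTCA for CREB, AGATAA for GATA factors, and the motifs of NRF1, ZNF143, YY1 and CTCF. Both strands were searched. The repeats contain AGGTCA.

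The members, the 17 gene lists (301 genes) and the rule for names were chosen with earlier results of these data known. The rule took PML and RARA, genes with a start within 2 kb of the 30 tallest peaks, listed genes with such a peak, the peaks at the edge of the set and the 3 longest gatherings; names beyond it were picked once values had been seen. Results for some bands are not reported here.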

Additional observations from a re-analysis of the deposited data

How the results depend on the processing

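The share of tall narrow peaks with another peak within 10 kb, 62.0%, moved beyond its interval in 5 of 11 alternatives. It was 49.8% with a length limit of 1000 bp, 66.4% with 2000 bp, and 54.2% when peaks within 1 kb were joined first. With neighbours counted within 5 kb it was 48.4% and within 50 kb 87.0%. A shorter or longer distance can only lower or raise the share, and the other short peaks had 46.0% and 82.9% there. For the remaining alternatives no share of other short peaks was set beside it. Shares in Giemsa-negative bands (63.2 to 67.6%) and on chromosome 19 (9.20 to 12.0%) stayed inside their intervals in every alternative run. So did the share at the starts of the 427 genes (0.600 to 1.60%). That share rests on 5 of the 500 peaks, with a wide interval of 0.325 to 2.32%, and the starts of other genes were not covered. The limit of 1000 bp kept 135 of the 500 peaks and that of 2000 bp kept 278. Leaving out the pair of 77 bp peaks was an alternative chosen after seeing the data. It kept 498 of the 500 peaks, so its shares could hardly have moved. Motif shares under the peaks and starts of all genes were not run, since no hg19 genome or full annotation was used here, and no replicate could be left out of a merged list. No paired analysis was possible because both replicates belong to 1 group and the list is merged over them. Read depth per peak is unknown, so differences in height between peaks carry no error.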
